A study of Mus musculus and Rattus norvegicus with 32 samples.

Results

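Small leucine-rich proteoglycans (SLRPs) were followed through RNA sequencing of mouse hearts and rat cardiomyocyte cultures in which METTL5, an RNA methyltransferase that modifies ribosomal RNA, was deleted or overexpressed. The family was taken as 9 genes by symbol, Dcn, Lum, Bgn, Fmod, Ogn, Omd, Prelp, Aspn and Podn, out of 55487 genes listed in each of the 3 mouse tables and 32883 in the rat table, where 8 of the 9 were found and Podn had no row matching the symbol.

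SLRPs are secreted proteins with a core of leucine-rich repeats, and many of them carry chondroitin, dermatan or keratan sulfate chains. They bind fibrillar collagens and set how fibrils assemble and how wide they grow, and several also bind transforming growth factor beta (TGF-beta) or, once released from the matrix, innate immune receptors. In the heart they are known mainly as products of fibroblasts and other stromal cells and as part of the fibrotic matrix.

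The 32 libraries formed 8 groups of 4. Hearts of 1-month-old C57BL/6 mice came from Mettl5-KO animals, a whole-body knockout, and from Ctrl animals. Hearts of 3-month-old C57BL/6 mice came from Mettl5-cKO animals, in which Cre driven by the Myh6 promoter removed a floxed part of Mettl5 in cardiomyocytes only, and from littermate Ctrl animals, whose Cre and floxed alleles are not given in the sources used here. A further set of Mettl5-cKO and Ctrl hearts, also labelled 3 months old, was taken 4 weeks after transverse aortic constriction (TAC), a surgical pressure overload, and no sham-operated libraries were analysed here. Neonatal rat ventricular myocytes (NRVMs) of Sprague Dawley rats at postnatal day 2 were pre-plated to remove fibroblasts, infected with an adenovirus carrying GFP (AdGFP) or human METTL5 (AdMettl5), and all treated with 20 µM phenylephrine (PE), a hypertrophic agonist, for 24 h. Because the hearts were whole tissue, fewer cells of a type and less RNA per cell cannot be told apart in any value below.

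Library totals were 19899033 to 21804907 counts in hearts and 14324700 to 18085339 in NRVMs. The targeted gene did not separate the heart groups by its whole-gene count. Reads of its floxed exons, which the authors report as nearly absent from Mettl5-cKO hearts, were not examined here. Mettl5 was at 5.97 ± 0.807 CPM (counts scaled to a library of 1000000, SD, n = 4) in Mettl5-KO and 5.12 ± 0.665 CPM in Ctrl hearts at 1 month, 6.51 ± 0.731 against 7.36 ± 0.554 CPM at 3 months, and 6.59 ± 0.764 against 6.75 ± 0.752 CPM after TAC, so the genotypes are those of the labels, which the gene-level count does not check. In NRVMs Mettl5 was at 21.2 ± 1.76 CPM with AdMettl5 and 17.0 ± 0.774 CPM with AdGFP, where the rat count need not include transcripts of a human coding sequence. Ctrl library 1 at 1 month stood apart from its group, with 33.7% mitochondrial counts against 40.6 to 48.1% in the other 3. Some of the values that it moves are also given without it. The heart identity of the libraries was checked on cardiomyocyte markers, whose summed level was at least 16922 CPM in every heart library and at least 13017 CPM in every NRVM library.

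The 9 genes lie on 5 mouse chromosomes (GRCm38), and 7 of them sit in 3 groups of neighbours. Dcn (decorin, chr10:97479609-97518143) and Lum (lumican, chr10:97565128-97572703) are 46984 bases apart. Prelp (chr1:133910304-133921414) and Fmod (fibromodulin, chr1:134037254-134048277) are 115839 bases apart on opposite strands. Aspn (asporin, chr13:49544443-49567565), Omd (osteomodulin, chr13:49582462-49592822) and Ogn (osteoglycin, chr13:49608046-49624501) follow each other with gaps of 14896 and 15223 bases, and no other protein-coding gene lies between any of these neighbours, although Cenpp spans the chromosome 13 group on the other strand. Bgn (biglycan, chrX:73483602-73495933) and Podn (podocan, chr4:108014791-108096445) stand alone. An antisense gene, Gm15851, shares 350 exonic bases, 9.682% of the total, with Prelp, and reads of that stretch cannot be told apart without strand, which the sources used here do not state.

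The 250 bases upstream of the RefSeq start (GRCm38.p6) are shown for the 4 members with the widest difference after TAC. Capitals mark CAGAC, letters of a SMAD element through which TGF-beta signals reach promoters, or its reverse complement GTCTG. Only full matches to these letters were marked and counted, and shorter parts of them were not. The stretches are chrX:73483351-73483600 on the plus strand for Bgn, chr1:134037004-134037253 on the plus strand for Fmod, chr13:49582212-49582461 on the plus strand for Omd and chr1:133921402-133921651 on the minus strand for Prelp.
Bgn: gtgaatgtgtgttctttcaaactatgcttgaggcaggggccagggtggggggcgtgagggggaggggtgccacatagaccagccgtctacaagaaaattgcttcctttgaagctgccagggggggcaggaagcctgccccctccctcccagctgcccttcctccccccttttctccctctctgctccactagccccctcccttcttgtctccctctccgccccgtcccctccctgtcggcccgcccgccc
Fmod: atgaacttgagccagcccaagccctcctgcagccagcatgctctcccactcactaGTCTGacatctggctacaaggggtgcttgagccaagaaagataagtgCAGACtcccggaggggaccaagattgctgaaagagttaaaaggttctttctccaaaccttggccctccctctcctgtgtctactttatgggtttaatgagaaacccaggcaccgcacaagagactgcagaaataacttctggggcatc
Omd: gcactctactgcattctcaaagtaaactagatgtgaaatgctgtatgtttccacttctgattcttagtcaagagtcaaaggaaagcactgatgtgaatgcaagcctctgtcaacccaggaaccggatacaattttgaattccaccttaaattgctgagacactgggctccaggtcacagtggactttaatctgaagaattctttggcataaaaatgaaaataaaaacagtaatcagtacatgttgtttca
Prelp: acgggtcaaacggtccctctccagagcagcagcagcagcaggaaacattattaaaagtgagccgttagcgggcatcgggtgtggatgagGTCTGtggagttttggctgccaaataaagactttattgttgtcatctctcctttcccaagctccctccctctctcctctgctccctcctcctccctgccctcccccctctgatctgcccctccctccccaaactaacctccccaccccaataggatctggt
Fmod held 2 matches, beginning 195 and 148 bases before the start, Prelp held 1, at 161 bases, and Bgn and Omd held none. No match was found upstream of Aspn, Ogn or Podn, the other members with a promoter entry. These letters occurred on either strand in 42.2% of 32851 mouse promoter stretches of the same length, so a match is a description of the sequence and not a binding site. The stretches also differed in base composition, from 38.4% GC in Omd to 64.4% in Bgn. TATAAA or its reverse complement was found in 2 places each upstream of Aspn and Ogn, overlapping each other in Ogn, against 12.4% of all promoters with at least 1, GGAATG, the letters of a TEAD element, once upstream of Ogn against 12.6%, and TGANTCA, those of an AP-1 element, in none of the 7 members with a promoter entry against 6.7%.

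Levels were compared between members only per kilobase of exonic length, in hearts. Dcn, which coats collagen I fibrils and binds TGF-beta, had the highest mean in 5 of the 6 heart groups, from 40.5 ± 6.41 CPM per kb (SD, n = 4) in Ctrl hearts at 3 months to 57.0 ± 5.85 CPM per kb in Mettl5-cKO hearts at 3 months. Bgn, its closest relative, and Ogn, a keratan sulfate SLRP, followed, and Lum, Prelp and Aspn had means between 5.92 and 16.8 CPM per kb in those groups. The lowest of these means, that of Aspn in the 1-month Ctrl group, was 6.80 CPM per kb without library 1. Podn was lower, at 2.59 to 4.53 CPM per kb, and Fmod and Omd stayed below 0.51 CPM per kb as group means there. In the 1-month Ctrl group Fmod and Omd overlapped only through library 1, without which Fmod was at 0.62 ± 0.105 and Omd at 0.248 ± 0.0688 CPM per kb (SD, n = 3) with separate ranges. The ranges of Fmod and Omd overlapped in Mettl5-KO hearts at 1 month and in Ctrl hearts at 3 months, and those of Dcn and Bgn overlapped in both 1-month groups, as did those of Dcn and Ogn in Ctrl hearts at 3 months. In the remaining group, Mettl5-cKO hearts after TAC, Bgn had the highest mean at 126.6 ± 51.5 CPM per kb against 90.9 ± 23.5 CPM per kb for Dcn, with overlapping ranges.

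**Figure D1:**
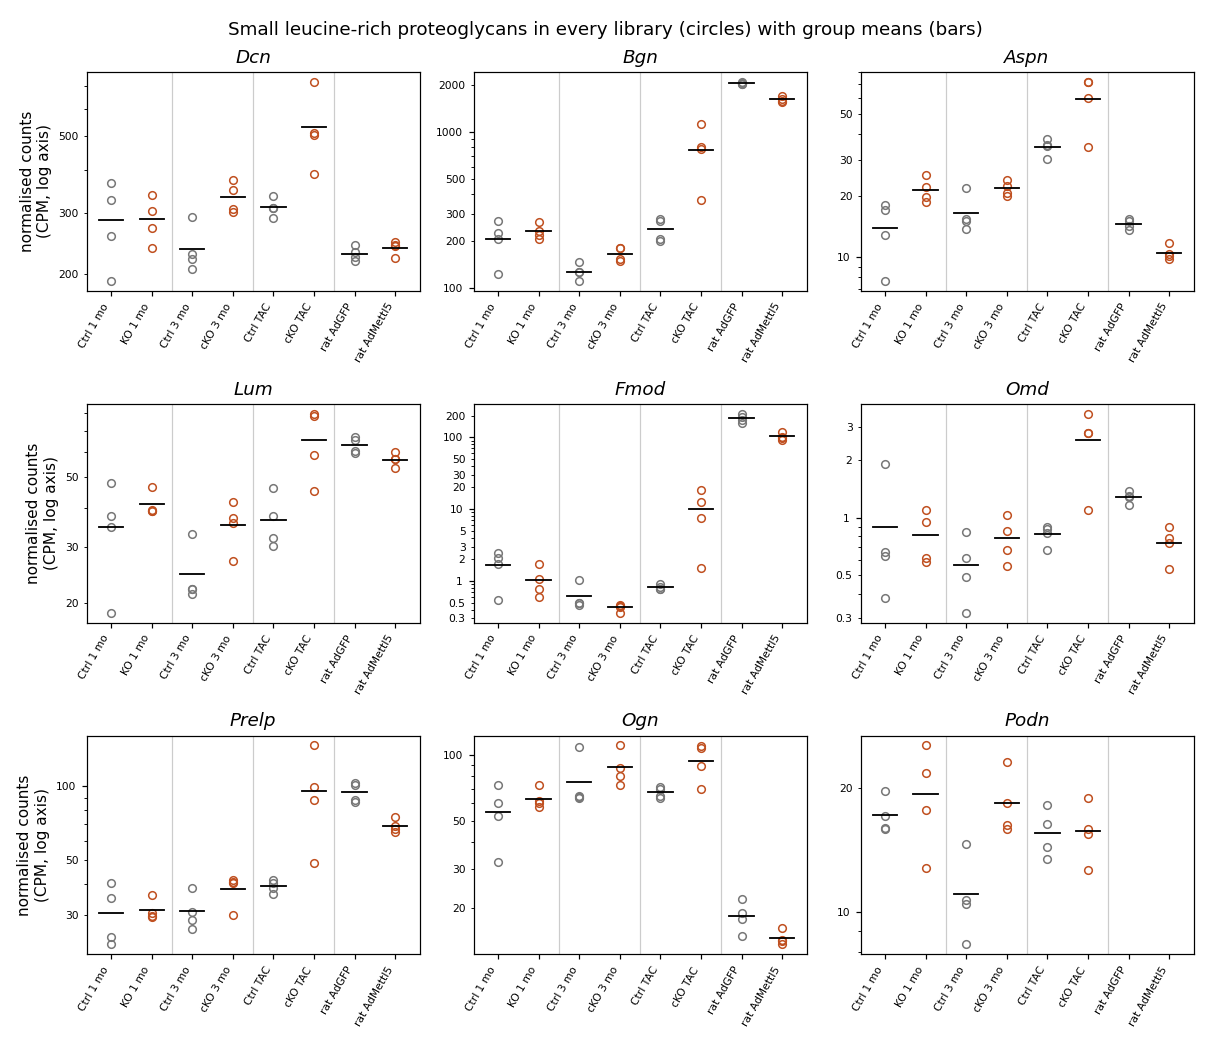
CPM of each SLRP in every library, on log axes, with 1 panel a gene, circles for libraries, bars for group means, grey for Ctrl or AdGFP and orange for Mettl5-KO, Mettl5-cKO or AdMettl5. The orange circles of Bgn, Fmod, Omd, Prelp and Dcn after TAC all lie above the grey ones, and Podn, with no rat row, shows overlapping groups after TAC.

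The question of the TAC comparison was how hearts without Mettl5 in cardiomyocytes differed from Ctrl hearts after pressure overload. That comparison gives a difference between genotypes after surgery and not the response to surgery. Of the 9 SLRPs, 8 were higher in Mettl5-cKO than in Ctrl hearts after TAC, 0 were lower, and Podn was not called. Fmod differed by 12.2-fold, Bgn by 3.25-fold, Omd by 3.11-fold and Prelp by 2.44-fold. Lum, Aspn, Dcn and Ogn were higher by 1.39-fold to 1.79-fold. A gene was called at an adjusted p under 0.05 by the quasi-likelihood test of edgeR, with p-values adjusted by Benjamini-Hochberg over all genes tested, and in this comparison 6.57% of 16340 genes were called higher and 12.7% were called in either direction. The median log2 fold change (Mettl5-cKO against Ctrl) was 0.84 over the 9 SLRPs and -0.0035 over all genes tested. With an absolute log2 fold change over 1 also asked for, 4 members remained, Bgn, Fmod, Omd and Prelp, against 2.9% of all genes.

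Among the class I members, which include the chondroitin and dermatan sulfate carriers, Bgn was at 1136, 802, 782 and 369 CPM in Mettl5-cKO libraries 1 to 4 and at 277, 206, 269 and 200.3 CPM in Ctrl libraries 1 to 4. The lowest Mettl5-cKO library, number 4, was above the highest Ctrl library. The log2 fold change of Bgn, a matrix protein that can also act as a ligand of Toll-like receptors, was 1.70 (SE 0.29, adjusted p = 0.0117, edgeR quasi-likelihood test). Dcn was at 718, 512, 505 and 388 CPM against 309, 309, 337 and 289.8 CPM, again without overlap, with a log2 fold change of 0.77 (SE 0.16, edgeR adjusted p = 0.0197). Aspn, which binds collagen and TGF-beta and generally lacks a glycosaminoglycan chain, was at 71.9, 60.01, 71.7 and 34.6 CPM against 35.1, 37.6, 35.4 and 30.3 CPM. Mettl5-cKO library 4 fell inside the Ctrl range, and Aspn was higher by 0.78 on the log2 scale (SE 0.20, edgeR adjusted p = 0.0367).

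Class II holds the tyrosine-rich, mostly keratan sulfate members. Fmod, which binds collagen I and assists its cross-linking, was at 18.5, 12.6, 7.48 and 1.50 CPM in Mettl5-cKO libraries 1 to 4 and at 0.893, 0.778, 0.832 and 0.776 CPM in Ctrl. These were 422, 276, 185 and 30 counts against 16 to 18 counts, so every Mettl5-cKO heart was above the Ctrl range, although the ratio of the highest to the lowest of these 4 hearts was wider than in any other member. The log2 fold change of Fmod was 3.61 (SE 0.66, edgeR adjusted p = 0.0139). Omd, known from mineralized tissue, was at 3.51, 2.78, 2.79 and 1.10 CPM against 0.893, 0.681, 0.832 and 0.873 CPM, which rests on 22 to 80 counts against 14 to 18. Its groups did not overlap either, and it was higher by 1.64 on the log2 scale (SE 0.32, edgeR adjusted p = 0.0168). Prelp, which links basement membrane proteoglycans to collagen, was at 147, 98.9, 87.7 and 48.7 CPM against 41.5, 38.5, 40.4 and 36.5 CPM. All Mettl5-cKO hearts were above all Ctrl hearts in Prelp, with a log2 fold change of 1.28 (SE 0.27, edgeR adjusted p = 0.0187). Lum, which limits fibril width, was at 79.7, 58.7, 78.2 and 45.3 CPM against 46.3, 30.3, 37.6 and 32.1 CPM. Here Mettl5-cKO library 4 lay just below Ctrl library 1, and Lum was higher by 0.84 (SE 0.20, edgeR adjusted p = 0.0263).

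Ogn, the class III member, was at 107, 89.1, 110 and 69.5 CPM in Mettl5-cKO and at 71.3, 69.7, 64.9 and 63.5 CPM in Ctrl hearts, and Mettl5-cKO library 4 fell within the Ctrl range. Its log2 fold change of 0.48 (SE 0.13) was the smallest of those called, at an edgeR adjusted p of 0.0469. Podn, the class V member, a collagen-binding protein described in smooth muscle, was at 12.7, 15.4, 15.9 and 18.9 CPM against 14.4, 13.4, 18.1 and 16.3 CPM. The Podn groups overlapped throughout, and the 95% interval of its log2 fold change ran from -0.29 to 0.32 around 0.01 (edgeR adjusted p = 0.960).

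The groups did not overlap in 5 members, Bgn, Dcn, Fmod, Omd and Prelp, all higher in Mettl5-cKO, against 9.41% of all genes without overlap in that direction.

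**Figure D2:**
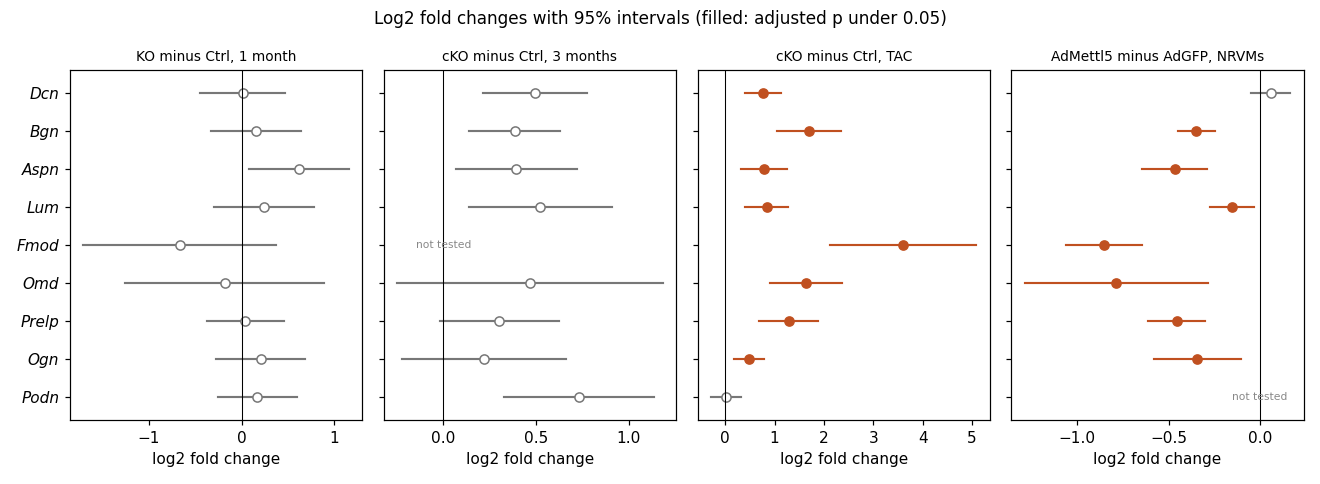
Log2 fold change of each SLRP (Mettl5-KO, Mettl5-cKO or AdMettl5 against its control) with 95% intervals in the 4 comparisons, on a horizontal scale of its own in each panel, with filled points for adjusted p under 0.05. After TAC all 9 members lie to the right of 0, 8 of them filled, with Podn at 0.01 and Fmod farthest at 3.61. In NRVMs 7 of 8 lie to the left.

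Mettl5-cKO library 4 was the lowest of its group in all 8 members called after TAC, and how many members passed the threshold depended on which hearts were used. Leaving out 1 library at a time gave 1 to 8 members. Without Ctrl library 2 or Mettl5-cKO library 2 the count was 2, without Ctrl library 4 it was 1 (Bgn), and without Ctrl library 1 or 3 it was 6 or 4. Without Mettl5-cKO library 1 or 3 it was 5, and without Mettl5-cKO library 4 it stayed at 8. The calls over all genes moved with it, from 2071 with all libraries to 479 without Ctrl library 4 and 3899 without Mettl5-cKO library 4. Bgn was called in all 8 of these fits and Fmod in 7, and the log2 fold changes of all 8 called members stayed positive in each of them. Scaling by library size alone moved the median log2 fold change of all genes to 0.14 and the share of calls that were higher from 51.9% to 79.7%, and the same 8 members were higher.

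Markers of activated fibroblasts moved with the SLRPs after TAC. Their summed level (6 genes) was 107 to 1019 CPM in Mettl5-cKO hearts and 38.1 to 73.1 CPM in Ctrl hearts, and Mettl5-cKO library 4 was again the lowest of its group. Of 5 tested, 4 were higher, with log2 fold changes of 3.64 for Postn, 4.60 for Comp, 3.58 for Cilp and 1.67 for Tnc. Fap was at -0.23 (edgeR adjusted p = 0.285). Cthrc1 had 0 counts in all Ctrl libraries and was below the filter. The general fibroblast markers (7 genes) did not separate the groups, with sums of 611 to 883 CPM in Mettl5-cKO and 631 to 731 CPM in Ctrl hearts. Among them Tcf21 was higher, Scara5 was lower and the other 5 were not called. Endothelial markers summed to 346 to 469 against 486 to 601 CPM, with 4 of 5 lower, and cardiomyocyte markers to 23957 to 31426 against 31086 to 35738 CPM, with Tnni3 alone lower of 7. Pericyte markers summed to 496 to 601 against 608 to 681 CPM, with Kcnj8 lower of 4, and macrophage markers to 108 to 151 against 84.4 to 116 CPM, with Adgre1 higher of 5. Mitochondrial counts made up 30.6 to 32.4% of Mettl5-cKO libraries 1 to 3 and 35.6% of library 4, against 34.5 to 35.6% in Ctrl. The part of these cell types and of the mitochondrial share in the SLRP differences was not tested.

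Genes that work with SLRPs were read from lists of 115 genes, against the 6.57% of all genes called higher and 12.7% called in either direction. Of 21 collagens and fibril partners, 17 were higher in Mettl5-cKO hearts after TAC and 0 lower, among them Col12a1 at a log2 fold change of 4.11, the cross-linking enzyme Lox at 2.96, the matricellular Thbs1 at 1.76 and Col1a2 at 1.65. Of 10 genes for TGF-beta ligands, receptors and latent-form binders, 6 were higher and 0 lower, with Ltbp2 at 4.43 and Tgfb2 at 1.93. Of 10 SLRP-cleaving proteases and their cofactors that were tested, 4 were higher, the protease genes Adamts4 (2.00) and Mmp2 (0.98) and the procollagen-processing enhancers Pcolce (1.19) and Pcolce2 (0.92). Of 12 receptors and sensors of SLRPs, 5 were higher, among them the endocytic receptor Lrp1 (1.03) and Met (1.30), and 1 was lower, the endothelial receptor Kdr (-0.70).

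Of 16 other proteoglycan core proteins, 7 were higher, among them versican, Vcan, at 1.91 and Prg4 at 0.96. Of 25 enzymes that build the glycosaminoglycan chains, 3 were higher (Chpf at 0.75, the dermatan epimerase Dse at 0.91 and Ust at 0.65) and Chst1 was lower at -0.48, a share of calls near that of all genes. Further SLRP family members outside the 9 gave 0 calls of 2 tested in edgeR, 1 at an unadjusted p under 0.05 and 0 by DESeq2. The counts of higher genes moved with the libraries used, as the SLRP count did. Collagens and fibril partners gave 15, 7, 12 and 3 without Ctrl libraries 1 to 4 and 15, 8, 15 and 18 without Mettl5-cKO libraries 1 to 4. Without Ctrl library 4 the counts were 2 for TGF-beta genes, 2 for proteases and cofactors, and 1 each for receptors and sensors, other core proteins and chain-building enzymes. Scaling by library size alone gave 8 receptors and sensors and 6 chain-building enzymes, and no filter on low counts gave 2 receptors and sensors and 4 other core proteins.

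The ratio of Bgn to Dcn, both per kb, was computed after its values had been seen. It was 1.51, 1.50, 1.48 and 0.910 in Mettl5-cKO hearts 1 to 4 after TAC and 0.857, 0.636, 0.764 and 0.662 in Ctrl hearts, so the groups did not overlap. The difference of the mean log2 ratio was 0.87, given with no test, and it stayed between 0.80 and 1.05 when single libraries were left out. At 3 months the ratio was 0.478 ± 0.0158 in Mettl5-cKO and 0.519 ± 0.0547 in Ctrl hearts (SD, n = 4). At 1 month it ran from 0.693 to 0.931 in Mettl5-KO hearts and from 0.357, in library 1, to 1.04 in Ctrl hearts. Mettl5-cKO library 4 after TAC, at 0.910, lay within both of these 1-month ranges. The 9 members together summed to 340 ± 106 CPM per kb after TAC in Mettl5-cKO hearts and to 163 ± 13.4 CPM per kb in Ctrl hearts.

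**Figure D3:**
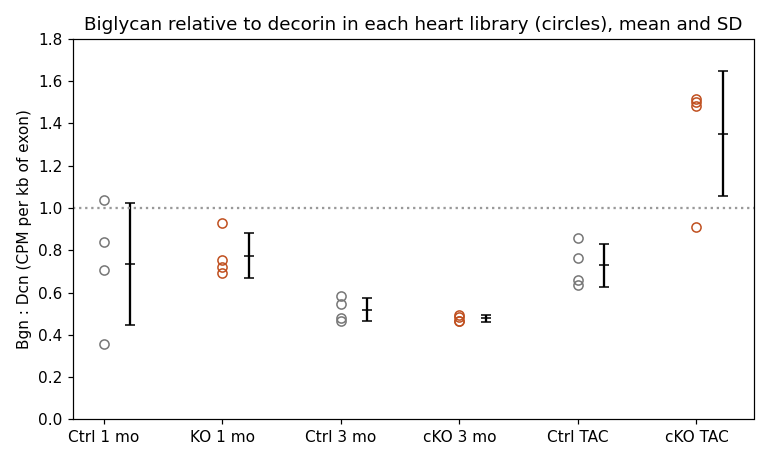
Ratio of Bgn to Dcn, each in CPM per kb, in every heart library (circles) with the group mean and SD, and a dotted line at a ratio of 1. After TAC 3 of the 4 Mettl5-cKO hearts lie at 1.48 to 1.51 and the fourth at 0.910, above all Ctrl hearts of that comparison.

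The 3-month hearts gave the same genotype contrast without surgery. No SLRP was called there (0 of 8 tested, against 0.0732% of 16391 genes), while 5 had an unadjusted p under 0.05 in edgeR against 7.05% of all genes. DESeq2 called 2, Dcn and Podn. It called 108 genes in all, 0.195% of the 55487 listed, a base that includes genes without counts, unlike that of the edgeR shares. The log2 fold changes of the 8 tested members were all above 0, with a median of 0.43 against 0.00071 over all genes. Podn was at 18.3, 16.2, 23.0 and 15.9 CPM in Mettl5-cKO libraries 1 to 4 and at 14.6, 8.36, 10.7 and 10.5 CPM in Ctrl, a log2 fold change of 0.73 (SE 0.18, edgeR adjusted p = 0.310). Dcn was at 301, 349, 308 and 373 CPM against 291, 221, 227 and 206 CPM (log2 fold change 0.49, SE 0.12, edgeR adjusted p = 0.316), and Bgn at 153, 181, 149.6 and 181 CPM against 146, 126, 111 and 126 CPM (0.39, SE 0.11, edgeR adjusted p = 0.427). In these 3 genes the groups did not overlap, against 2.19% of all genes without overlap in the higher direction.

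The other 5 tested members at 3 months overlapped between the groups, with log2 fold changes of 0.22 for Ogn to 0.52 for Lum. Ctrl library 1 was the highest Ctrl library in all 8, most clearly in Ogn, at 109 CPM against 63.7 to 64.6 CPM in the other 3. Without it Ogn was at 0.45 and Omd at 0.72 on the log2 scale. Over all fits without 1 library Ogn ran from 0.08, without Mettl5-cKO library 1, to 0.45, and Omd from 0.27, without Ctrl library 4, to 0.72, with no call in any of them. Fmod did not pass the filter on low counts, with 8 to 22 counts a library. Its mean went the other way, at 0.427 ± 0.0465 CPM in Mettl5-cKO and 0.624 ± 0.276 CPM in Ctrl hearts (SD, n = 4), with overlapping ranges. Fibroblast markers summed to 766 to 862 CPM in Mettl5-cKO and 584 to 714 CPM in Ctrl hearts with no marker called, and their part in the SLRP values was not tested. The partner lists gave 0 calls of 92 genes tested, 12 at an unadjusted p under 0.05 in edgeR and 3 by DESeq2.

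The 1-month hearts addressed the whole-body knockout. No SLRP was called (0 of 9, against 0.00612% of 16329 genes), 1 had an unadjusted p under 0.05 in edgeR against 4.57% of all genes, and DESeq2 called 0. That gene was Aspn, at 21.97, 25.2, 18.5 and 19.6 CPM in Mettl5-KO libraries 1 to 4 and 7.68, 12.9, 18.0 and 17.1 CPM in Ctrl. Its groups did not overlap, against 1.52% of all genes in that direction, but Mettl5-KO library 3 and Ctrl library 3 were nearly level, and the log2 fold change of 0.62 (SE 0.24) had an edgeR adjusted p of 0.973. Ctrl library 1 had the lowest Bgn, Lum, Ogn and Aspn of its group, at 122, 18.6, 32.5 and 7.68 CPM, and the highest Omd, at 49 counts against 8 to 12. Without that library Omd went from a log2 fold change of -0.18 to 0.55 Bgn from 0.16 to -0.02 and Aspn from 0.62 to 0.42, with none of these called in any fit. Fmod had the widest log2 fold change of the 9 and was lower in Mettl5-KO, at -0.67 (SE 0.46, edgeR adjusted p = 0.973). It rested on 13 to 35 counts in Mettl5-KO and 14 to 46 in Ctrl libraries, with overlapping groups. With Ctrl library 1 included, the median of the 9 log2 fold changes was 0.16, against -0.0067 over all genes. The partner lists gave 0 calls of 91 genes tested, 10 at an unadjusted p under 0.05 in edgeR and 0 by DESeq2.

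The TAC and 3-month tables were fitted together, in 1 model of 16 libraries, to set the 2 experiments side by side within each genotype. Surgery and experiment cannot be told apart in these contrasts, since the operated hearts form a table of their own. In Ctrl hearts 1 member was higher after TAC than at 3 months, Aspn, at a log2 fold change of 1.07 (SE 0.20, edgeR adjusted p = 0.0325), where 0.34% of 17070 genes were called higher. Its 4 Ctrl libraries were at 30.3 to 37.6 CPM after TAC and at 13.8 to 21.8 CPM at 3 months, each scaled within its own table. The call was lost when Ctrl library 2, 3 or 4 at 3 months or any 1 of the 4 Ctrl TAC libraries was left out, which gave 0 members, and without Mettl5-cKO TAC library 4 the count was 2. Bgn was at 0.90 (edgeR adjusted p = 0.0846).

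In Mettl5-cKO hearts 7 of the 9 were higher after TAC than at 3 months, where 10.2% of all genes were called higher. The log2 fold changes were 4.55 for Fmod, 2.23 for Bgn, 1.71 for Omd, 1.47 for Aspn, 1.34 for Prelp, 0.90 for Lum and 0.69 for Dcn, with edgeR adjusted p from 5.25e-05 for Bgn to 0.00569 for Dcn. Ogn (0.12) and Podn (-0.21) were not called. All fits that left out 1 of the 16 libraries also gave 7 members. The Ctrl and Mettl5-cKO contrasts share 1 fit, and the Mettl5-cKO TAC libraries also enter the comparison by genotype above.

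Whether the genotype difference itself was wider after TAC than at 3 months was tested by the interaction term. With all 16 libraries 0 of 9 members were called, against 0.00586% of 17070 genes, while 5 had an unadjusted p under 0.05 in edgeR against 11.8% of all genes. DESeq2 called 2, Bgn and Fmod. It called 241 genes in all, 0.434% of the 55487 listed, a base that again includes genes without counts. The interaction was 4.16 on the log2 scale for Fmod (SE 0.88, edgeR adjusted p = 0.123) and 1.33 for Bgn (SE 0.33, edgeR adjusted p = 0.149). It was 1.18 for Omd and 1.00 for Prelp. The Fmod value exceeds its genotype difference after TAC, 3.61, because Fmod was lower in Mettl5-cKO than in Ctrl hearts at 3 months. That 3-month difference rests on 8 to 22 counts a library, and Fmod was below the filter when those hearts were fitted alone. Podn was at -0.70 (SE 0.24, edgeR adjusted p = 0.262), the 1 negative value. Without Mettl5-cKO TAC library 4 the term was called for 4 members, Bgn, Fmod, Omd and Prelp, and for 3.91% of all genes, and without any other single library for 0 members.

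**Figure D4:**
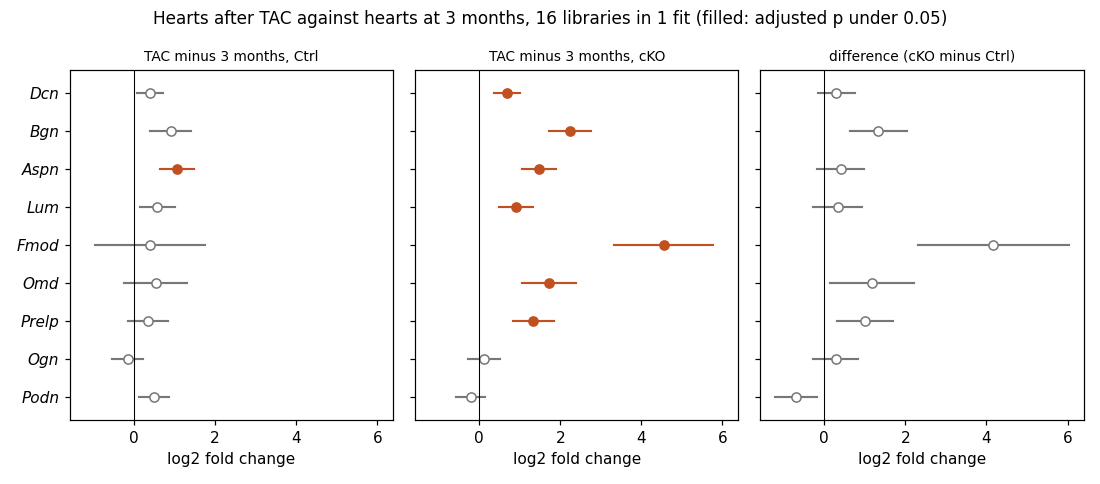
Log2 fold change of each SLRP between hearts after TAC and hearts at 3 months, in Ctrl and in Mettl5-cKO animals. A further panel gives the interaction, the Mettl5-cKO minus the Ctrl change, and has no filled point. All panels share a horizontal scale, with 95% intervals and filled points for adjusted p under 0.05. Aspn is the 1 filled point in Ctrl hearts at 1.07, and 7 points are filled in Mettl5-cKO hearts, from 0.69 for Dcn to 4.55 for Fmod.

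In PE-treated NRVMs the question was the reverse one, what added METTL5 does. Of 8 SLRPs, 7 were lower with AdMettl5 than with AdGFP and Dcn was not called, in a comparison in which 25.7% of 15041 genes were called lower and 52.8% were called in either direction. No member, 0 of 8, also passed an absolute log2 fold change of 1, against 5.85% of all genes, and the median of the 8 was -0.40 against -0.0022 over all genes. The AdMettl5 libraries were all shallower than the AdGFP libraries, with totals up to 14642431 against at least 17344430 counts.

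Fmod was at 102, 92.0, 96.6 and 119 CPM in AdMettl5 libraries 1 to 4 and at 158, 176, 213 and 193 CPM in AdGFP libraries 1 to 4. Every AdMettl5 library was below every AdGFP library, and Fmod fell by 0.85 on the log2 scale (SE 0.10, edgeR adjusted p = 1.53e-05). Omd, at 8 to 14 counts against 20 to 23, fell by 0.79 (SE 0.23, edgeR adjusted p = 0.0125), and DESeq2 did not call it (adjusted p = 0.0505). Bgn was at 1712, 1574, 1587 and 1642 CPM against 2045, 2078, 2111 and 2057 CPM. Again every AdMettl5 library was below every AdGFP library, and Bgn fell by 0.35 (SE 0.05, edgeR adjusted p = 6.69e-05). Aspn, at 9.80 to 11.8 against 13.5 to 15.4 CPM, fell by 0.47, and Prelp, at 64.9 to 75.2 against 86.0 to 103 CPM, fell by 0.46, both without overlap (edgeR adjusted p = 0.000442 and 0.000185).

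Ogn, at 13.7 to 16.2 against 14.9 to 22.1 CPM, and Lum, at 53.6 to 60.05 against 59.6 to 67.1 CPM, overlapped between the groups, with log2 fold changes of -0.34 (edgeR adjusted p = 0.0197) and -0.15 (edgeR adjusted p = 0.0381). The Lum call was lost without AdMettl5 library 2, 3 or 4 or AdGFP library 1 or 3, with edgeR adjusted p up to 0.115, and the Ogn call without AdMettl5 library 2 or 3 or AdGFP library 3, up to 0.0585. Dcn was at 247, 223, 240.0 and 242 CPM with AdMettl5 and at 230.4, 223, 242 and 218 CPM with AdGFP, and its 95% interval ran from -0.05 to 0.17 around 0.06 on the log2 scale. In all, 5 members had groups without overlap, each lower with AdMettl5, against 23.1% of all genes. Scaling by library size alone moved the median of all genes to 0.13 and the share of calls that were higher from 51.4% to 71.5%. Under that scaling 5 members were lower (Aspn, Bgn, Fmod, Omd and Prelp), Lum and Ogn were not called, and Dcn was higher at 0.19.

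The cultures held markers of cells other than myocytes in every library. Fibroblast markers summed to 408 to 442 CPM with AdMettl5 and 524 to 560 CPM with AdGFP, with 5 of 7 lower (Gsn, Ddr2, Tcf21, Pdgfra and Scara5), and activated fibroblast markers to 858 to 931 against 1111 to 1209 CPM, with 4 of 6 lower and Tnc and Comp higher. Cardiomyocyte markers were also lower, 7 of 7, with sums of 13017 to 14496 against 29635 to 37568 CPM. Smooth muscle markers went the other way, with 2 of 4 higher and 0 lower. Their sums were 3204 to 3705 against 2677 to 3393 CPM, with overlap. Pericyte markers were level, at 408 to 466 against 437 to 466 CPM, with 1 of 4 higher and 1 lower. Epicardial or mesothelial markers were lower in 4 of 4, macrophage markers in 1 of 3 tested and endothelial markers in 0 of 3 tested. The part of these cells in the SLRP differences was not tested.

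The partner lists in NRVMs are to be read against the 25.7% of all genes called lower and the 27.1% called higher. Of 18 collagens and fibril partners tested, 11 were lower with AdMettl5 and 1 higher, among them Col6a1 at -0.74 and Loxl1 at -0.70. Of 10 TGF-beta genes, 7 were lower, with Ltbp2 at -0.69 and Ltbp4 at -0.56, and 2 higher, Ltbp1 and Tgfb1. Proteases and cofactors had 3 of 11 lower, Mmp14, Mmp2 and Pcolce, and 2 higher, Mmp9 and Pcolce2, shares near those of all genes. Glycosaminoglycan synthesis was split, with 7 higher and 6 lower of 28, and became 16 higher and 3 lower under scaling by library size alone, so no direction is given for it. Receptors and sensors had 4 higher and 2 lower of 12, and other proteoglycan core proteins 11 higher and 5 lower of 18. Without AdMettl5 library 3 the core proteins gave 7 higher and 3 lower. Without any 1 of AdMettl5 libraries 1, 2 and 3 or AdGFP libraries 3 and 4, 1 receptor was lower. Under scaling by library size alone receptors had 7 higher and 0 lower, core proteins 12 and 3, and collagens and fibril partners 6 and 11. Further SLRP family members gave 0 calls of 3 tested in edgeR, 0 at an unadjusted p under 0.05 and 0 by DESeq2.

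How the members varied together within groups was described by Pearson's r of their log2 CPM over the 24 hearts, after each group mean had been subtracted. All 24 hearts were scaled together for these correlations, and the values are a description with no p. Lum and Ogn were most alike (r = 0.93), followed by Bgn and Aspn (0.88), Aspn and Ogn (0.86), and Aspn and Lum (0.84). Podn ran from -0.33 with Fmod to 0.32 with Omd. Some values rested on Ctrl library 1 at 1 month and Mettl5-cKO TAC library 4. Without both, Lum and Ogn stayed at 0.85, Bgn and Aspn went to 0.60, Bgn and Fmod from 0.83 to 0.33, and Dcn and Aspn from 0.46 to 0.77. Podn and Omd went from 0.32 to 0.61 and Podn and Aspn from -0.09 to 0.36, so the low values of Podn with all hearts rested in part on these libraries.

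Over 17588 genes, those whose within-group pattern was most like a member's included Pdgfra, a growth factor receptor of fibroblasts, for Dcn (r = 0.92, and 0.89 without both libraries), Serpinf1 and Col1a2 for Bgn (0.94 and 0.93, and 0.83 and 0.82 without both) and Col14a1, a fibril-associated collagen, for Lum (0.91 and 0.83). Enpep was the first for Ogn (0.88 and 0.81) and stood second for Lum. Fn1, fibronectin, came first for Aspn (0.88 and 0.64), Col8a2 for Fmod (0.88 and 0.42), Cfhr2 for Omd (0.91 and 0.74), Pqlc3 for Prelp (0.92 and 0.84) and Arid1a for Podn (0.79 and 0.81).

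**Figure D5:**
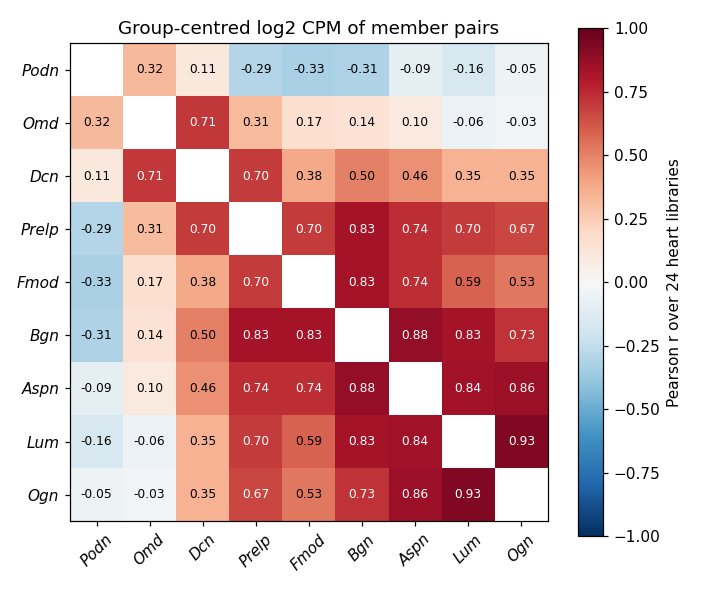
Pearson's r between the members' log2 CPM over 24 hearts after subtraction of group means, as a heat map with 1 cell a pair. Lum with Ogn is highest at 0.93, and the Podn row runs from -0.33 to 0.32.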

How the data were processed

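RNA of 24 mouse hearts and 8 rat NRVM cultures was sequenced on a BGI platform. The authors aligned reads with HISAT2 2.0.4 and quantified them with StringTie 2.1.4 (versions and the builds GRCm38 and Rnor_6.0 per the submitters' processing notes), and deposited 4 tables of gene counts, read here as estimated counts since StringTie derives them from coverage. The deposited counts were whole numbers and were used as they were. Columns of 3 tables were matched to a group and not to a single sample, so library numbers there are names only. Nothing in the labels says more of how the 4 libraries of a group were taken, and p-values measure the spread between these libraries.

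Genes were filtered with edgeR 4.0.16 (filterByExpr, minimum count 10), scaled by TMM and tested by quasi-likelihood F tests with Benjamini-Hochberg adjustment over all genes tested in R 4.3.3, with 1 fit a table. Adjusted p under 0.05 was a call. A fit of 16 libraries gave the contrasts between the TAC and 3-month tables. CPM used TMM-scaled library sizes, log2 CPM a prior count of 2, and per-length values the exon union of GENCODE vM21, with no rat annotation used. Promoters came from a RefSeq table, which matched 7 members. The scripts were tested on simulated data. Alternatives were DESeq2 1.42.0, other scalings and filters, the fold threshold, a replicate block and leaving out each library. The members, gene lists, motifs and tests were chosen with earlier results of these data known. Genes named in the text were the members, the partner and marker lists, and the 2 genes most like each member. Intervals cover the spread between libraries, and the median SE of a log2 fold change in the 4 single-table comparisons ranged from 0.08 in NRVMs to 0.18 in the 1-month hearts. No libraries were identical or within sampling noise of each other.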

Additional observations from a re-analysis of the deposited data

Results flagged for a closer look

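In 70 groups of 4 libraries (each member in each group), 5 had a library far from the other 3 by Dixon's test, and chance flags about 1 in 20 groups. Ctrl library 1 at 3 months was high in Ogn, at 109 CPM, and in Lum, at 33.1 CPM. Mettl5-KO library 2 at 1 month was high in Lum, at 46.5 CPM. Ctrl library 3 at 3 months was high in Fmod, at 1.04 CPM, which is 22 counts. Mettl5-cKO library 3 at 3 months was low in Prelp, at 30.1 CPM.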

How the results depend on the processing

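The number of SLRPs called after TAC went from 8 to 5 with no filter on low counts, to 4 with an absolute log2 fold change over 1 and to 7 in the fit of 16 libraries, where Ogn was lost. It ran from 1 to 8 when single libraries were left out, where fewer samples enter each fit. The count at 3 months was 2 by DESeq2, and 0 in every fit without 1 library. At 1 month it was 0 in every fit without 1 library and 0 with the replicate block. Between Ctrl and Mettl5-KO libraries of the same number, the correlations of deviations were 0.24, 0.12, -0.11 and 0.08. Libraries of unlike number were not compared, so these values cannot decide whether the shared numbers pair the samples. In NRVMs the count was 0 with an absolute log2 fold change over 1 and 5 to 7 without single libraries. The interaction gave 2 by DESeq2 and 0 to 4 without single libraries. TAC in Ctrl hearts gave 2 by DESeq2, 0 with library size alone, 0 with no filter and 0 to 2 without single libraries, and TAC in Mettl5-cKO hearts 7 in each.

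Directions that turned did so only when 1 library was left out, and none of those values was called. At 1 month the log2 fold change of Prelp ran from -0.073 to 0.20 without single libraries, turning to -0.050 without Ctrl library 1, -0.073 without Ctrl library 2 and -0.030 without Mettl5-KO library 3. Bgn ran from -0.021, without Ctrl library 1, to 0.32, and Omd from -0.44 to 0.55, the latter without Ctrl library 1. Dcn ran from -0.14, without Ctrl library 2, to 0.15, and was at -0.034, -0.014 and -0.075 without Ctrl library 4, Mettl5-KO library 1 and Mettl5-KO library 2. After TAC Podn ran from -0.078, without Mettl5-cKO library 4, to 0.10, with -0.017 and -0.047 without Ctrl libraries 1 and 2. Ogn for TAC in Ctrl hearts ran from -0.23 to 0.073, the latter without Ctrl library 1 at 3 months. The cause was not tested. Fmod and Omd in hearts outside the TAC groups rest on 7 to 49 counts a library, where differences could be missed at this depth. The list counts under other settings, the ratio and sum without single libraries, the correlations without both libraries named, and the 1-month levels without Ctrl library 1 were chosen after seeing the data.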
